A study of Rattus norvegicus with 23 samples.

Results

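The comparison described here is the heart after an arteriovenous fistula was added to a nephrectomy, set against the heart after the nephrectomy alone. Its members are the 8 heart libraries that carry these labels, 4 labelled AVF+NX and 4 labelled NX, out of 23 RNA-seq libraries of heart and kidney in the series. All animals were Sprague-Dawley rats aged 13 weeks, and tissue was taken 4 weeks after the operation. Both groups had a 5/6 nephrectomy, a surgical removal of kidney tissue that produces chronic kidney disease, and differed in the fistula, for which the end of the jugular vein was sewn to the side of the carotid artery. A further 3 heart libraries from sham-operated rats (Sham) shared the fit and are given as a level beside the comparison. The labels call the replicates biological replicates and do not say which wall or chamber of the heart was taken.

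A fistula lets arterial blood return to the right heart without passing through a capillary bed, so the heart pumps a larger volume. Adult heart muscle draws most of its energy from oxidising fatty acids in mitochondria, and hearts under a long-lasting load are known to lower that pathway, to return to genes of the fetal heart and to lay down matrix from fibroblasts. In bulk tissue, fewer cells of a type and less RNA per cell cannot be told apart, and this holds for every level given here.

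The 4 AVF+NX libraries held 11889483 to 48079431 counts and the 4 NX libraries 9605973 to 22679092, so the group with the fistula was on the whole sequenced deeper. The mean log2 totals of 24.8 and 23.8 gave p = 0.114 in an exact two-sided permutation test, for which the smallest p with 4 against 4 is 0.0286. Genes of the mitochondrial chromosome took 23.5% ± 1.75 (SD, n = 4) of the counts in AVF+NX hearts and 20.2% ± 1.23 (n = 4) in NX hearts, and the groups did not overlap (exact permutation p = 0.0286, 0.0572 after adjustment over 6 such measures). Libraries NX 1 and NX 4 stood apart from NX 2 and NX 3. The first principal component, with 43.0% of the variance, parted NX 1 and NX 4 from the other 6 libraries, and Rmrp, the RNA of the RNase MRP complex, was at 2242 and 1888 CPM in NX 1 and NX 4 against 182 and 317 CPM in NX 2 and NX 3. Rmrp lay between 239 and 377 CPM in AVF+NX and between 2180 and 2555 CPM in Sham hearts. Of 63 tested genes that the files name by an RNA family none was called, 54 were below 0 and the median log2 fold change was -0.72. Heart muscle genes identified the tissue. Over plain library totals, Myh6 was at 21200 CPM or more in the 8 AVF+NX and NX libraries. Umod, Slc34a1 and Aqp2 of the kidney were at 0.208 CPM or less there.

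Of 12794 genes tested, 43 passed an adjusted p below 0.05 in edgeR's quasi-likelihood test, which is 0.336% of the genes. Of these, 22 (0.172%) rose and 21 (0.164%) fell in AVF+NX hearts, and in each of the 43 genes the 4 AVF+NX values lay beyond all 4 NX values. The genes that rose included Sparc, Mgp and Adamtsl2 of the matrix and Lyve1 and F13a1, which resident macrophages express, and those that fell included 4 genes of fatty acid oxidation. Most changes were small, with rises from 1.37-fold, falls of 1.34-fold to 2.14-fold, and 8 genes past 2-fold, Vsig4 included. The largest rises were Vsig4 at 7.56-fold and then Mest at 2.75-fold. Vsig4 passed the count filter only through the AVF+NX libraries, so it had to differ. None of the 43 kept its call in every fit that left out 1 heart library. The median log2 fold change over all genes tested was -4e-05. At an unadjusted p below 0.05 there were 2752 genes, 1215 higher and 1537 lower, and the authors' deposited table gives 451 genes at their adjusted p below 0.05, 198 higher and 253 lower. That table holds 42 of the 43 genes among its calls, which is 97.7% of the 43 and 9.31% of the 451. Counts of called list members below are to be set beside these shares of all genes, 0.172% called higher and 0.164% called lower. All levels below are CPM, read counts scaled to a common library total with TMM factors, and fold changes are AVF+NX over NX.

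**Figure D1:**
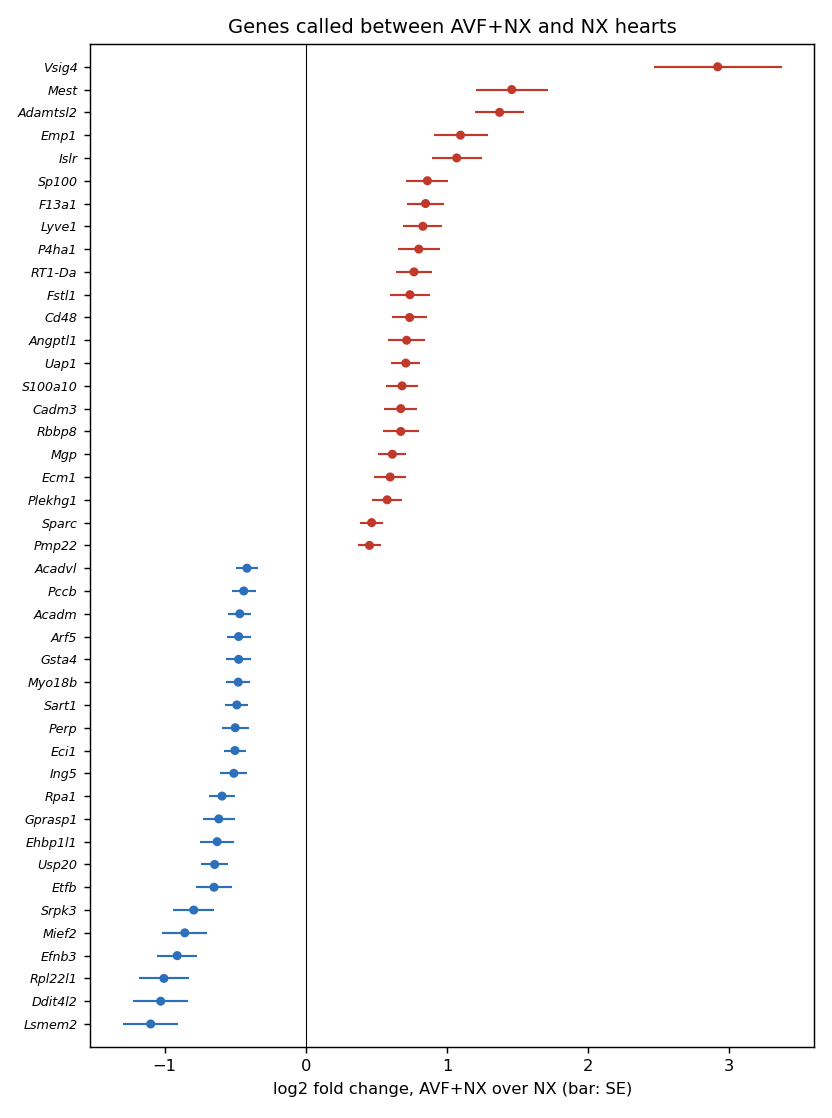
Log2 fold change, AVF+NX over NX, of the 43 genes called in heart, with bars for the standard error. The 22 genes that rose are in red and run from Pmp22 at 0.45 to Vsig4 at 2.92, and the 21 that fell are in blue and run from Acadvl at -0.42 to Lsmem2 at -1.10. Vsig4 passed the count filter only through the AVF+NX libraries, and the next highest is Mest at 1.46.

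Among the genes that fell were 4 that act in the burning of fatty acids, out of 30 such genes tested. Over all genes tested 0.164% were called lower. Acadvl and Acadm, the dehydrogenases that open the first step of beta-oxidation for very long and medium chains, fell, and so did Eci1, which shifts the double bond of unsaturated chains, and Etfb, a subunit of the flavoprotein that carries their electrons to the respiratory chain. The regions just upstream of these 4 genes are shown because the genes moved together. Each is 300 bases from RefSeq (build GRCr8), from 250 before to 50 after the start of the gene, with matches in capitals to AGGTCA, the half-site of nuclear receptors, to TCAAGGTCA, the longer site of oestrogen-related receptors, to GCATGCGC of NRF1 and to CCAAT of NF-Y, on both strands. TCAAGGTCA contains AGGTCA.
Eci1, chr10:13961000-13961299, plus strand: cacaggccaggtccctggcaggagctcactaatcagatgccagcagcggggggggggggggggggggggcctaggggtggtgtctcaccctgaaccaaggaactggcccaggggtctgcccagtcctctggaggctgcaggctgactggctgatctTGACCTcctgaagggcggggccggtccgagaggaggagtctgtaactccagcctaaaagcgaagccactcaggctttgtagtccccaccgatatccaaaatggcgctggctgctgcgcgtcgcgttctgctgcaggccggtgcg
Acadm, chr2:245542815-245543114, minus strand: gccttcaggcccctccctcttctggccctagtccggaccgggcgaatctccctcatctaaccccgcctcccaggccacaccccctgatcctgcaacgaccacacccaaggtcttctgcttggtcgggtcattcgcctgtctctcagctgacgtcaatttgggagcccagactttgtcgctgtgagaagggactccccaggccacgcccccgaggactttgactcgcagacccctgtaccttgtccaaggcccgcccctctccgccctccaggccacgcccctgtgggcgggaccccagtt
Acadvl, chr10:55236656-55236955, minus strand: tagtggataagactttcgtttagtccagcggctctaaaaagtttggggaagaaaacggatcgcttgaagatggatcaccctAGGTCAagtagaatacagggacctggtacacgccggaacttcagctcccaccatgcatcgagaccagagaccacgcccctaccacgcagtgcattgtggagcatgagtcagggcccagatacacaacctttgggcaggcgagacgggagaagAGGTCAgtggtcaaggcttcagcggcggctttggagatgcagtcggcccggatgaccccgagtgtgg
Etfb, chr1:102988249-102988548, plus strand: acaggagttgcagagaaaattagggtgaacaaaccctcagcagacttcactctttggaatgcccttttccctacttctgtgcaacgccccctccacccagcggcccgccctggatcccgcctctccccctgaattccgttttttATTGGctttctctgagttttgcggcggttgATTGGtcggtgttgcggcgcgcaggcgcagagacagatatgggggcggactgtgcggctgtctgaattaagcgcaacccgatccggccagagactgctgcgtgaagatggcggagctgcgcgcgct
AGGTCA stood once upstream of Eci1 and at 2 places upstream of Acadvl, CCAAT stood at 2 places upstream of Etfb, and the Acadm window held no match. Over all 33469 promoter windows of the table, 16.2% held AGGTCA, 37.5% CCAAT, 2.47% GCATGCGC and 0.433% TCAAGGTCA, so a match to either of the first motifs is common. Of the 18 genes that fell and have a window, 3 held AGGTCA and 6 CCAAT, against 3 and 4 of the 20 that rose.

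Eci1 (chromosome 10, 13797562 to 13810913 in the files, whose build is not given in the sources used here) stood at 88.1, 101, 106 and 95.01 CPM in AVF+NX libraries 1 to 4 and at 134, 137, 143 and 139 CPM in NX libraries 1 to 4. All 4 hearts with a fistula lay below all 4 without it, and it fell by 0.50 on the log2 scale (SE 0.08, adjusted p = 0.0347). Sham hearts were higher than both, at 158 to 173 CPM. Acadm (chromosome 2, 260124418 to 260148589) measured 522, 524, 485 and 555 CPM after the fistula and 769, 716, 714 and 686 CPM after nephrectomy alone. No AVF+NX heart reached the lowest NX heart, and Acadm fell by 0.47 on the log2 scale (SE 0.08, adjusted p = 0.0378). Acadvl (chromosome 10, 56619303 to 56624526) was at 364, 344, 348 and 355 CPM against 501, 437, 432 and 515 CPM, a fall by 0.42 (SE 0.08, adjusted p = 0.0443). For Etfb (chromosome 1, 98472745 to 98486976) the values were 122, 121, 124 and 137 CPM against 244, 156, 169 and 223 CPM, and it fell by 0.65 (SE 0.13, adjusted p = 0.0471). The NX hearts were split for Etfb, with NX 2 and NX 3 closer to the AVF+NX hearts and NX 1 and NX 4 closer to the 281 to 297 CPM of Sham, and against NX 2 and NX 3 alone the log2 fold change was -0.38. Against those 2 libraries Acadvl was at -0.32 and Acadm at -0.47, and Etfb, Acadvl and Acadm were no longer called there (adjusted p = 0.0783, 0.0907 and 0.0611), while Eci1 was at -0.54 (adjusted p = 0.0389).

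Of 30 fatty acid oxidation genes tested, 4 passed the test and all 4 fell, with 23 of the 30 below 0 and a median log2 fold change of -0.11. Per library, the median of the 30 against the mean of the NX hearts overlapped between the groups. It ran from -0.23 to -0.014 in AVF+NX and from -0.11 to 0.086 in NX hearts on the log2 scale. Groups did not overlap for 6 of the 30, all lower, where 5.10% of all genes were lower without overlap and 4.96% higher without overlap. Hadhb, which carries the last step of the cycle in the trifunctional protein, was at 820 to 974 CPM against 1164 to 1293 CPM (log2 fold change -0.40, adjusted p = 0.0514). The other 7 of the 30 were above 0, among them Cpt2 and Cpt1b, which bring long chains into the mitochondrion, at 0.31 (adjusted p = 0.203) and 0.11 (adjusted p = 0.481), and Pdk4, a kinase that holds back pyruvate oxidation, at 0.42 (adjusted p = 0.466). Pccb, a subunit of the propionyl-CoA carboxylase that handles odd chains and some amino acids, fell by 0.44 (SE 0.09, adjusted p = 0.0488), from 109 ± 8.92 to 80.6 ± 6.11 CPM (SD, n = 4 each). Gsta4, a glutathione transferase that clears aldehydes formed from oxidised lipids, fell by 0.48 (SE 0.09, adjusted p = 0.0378).

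**Figure D2:**
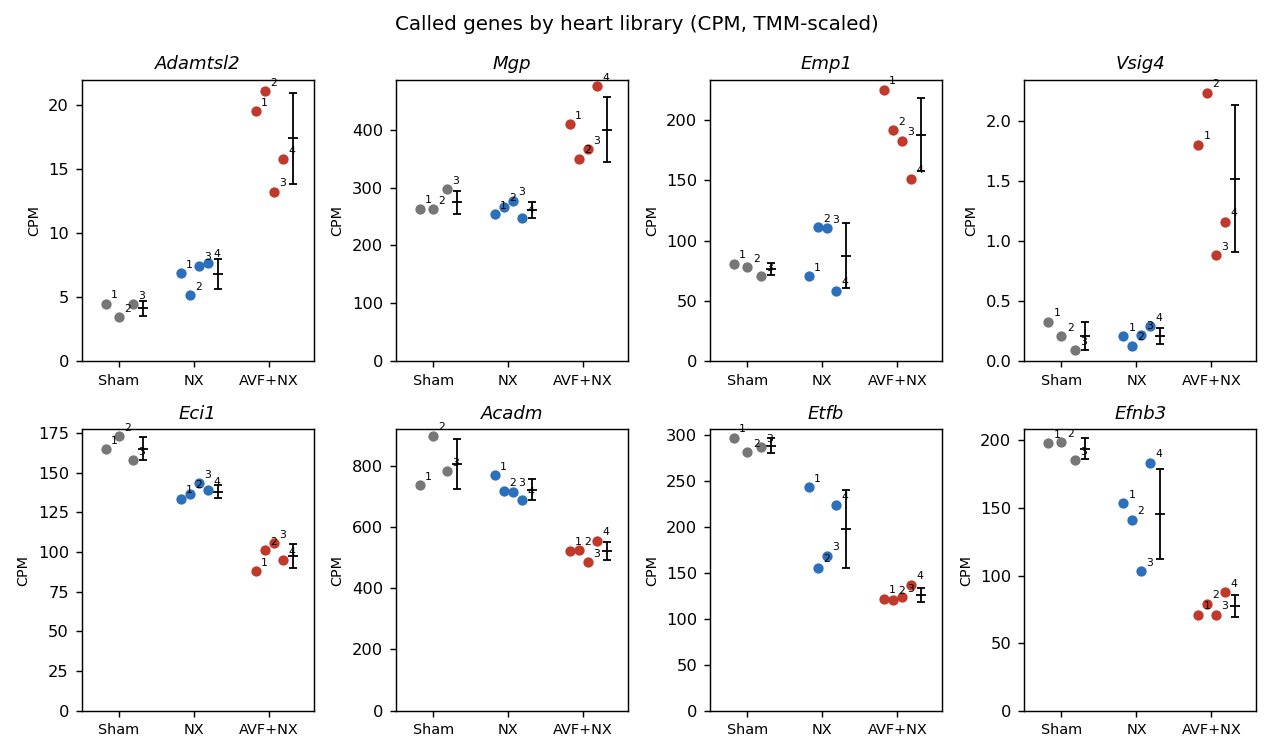
CPM of 8 called genes in each heart library, by group, with library numbers beside the points and bars for the mean and SD (3 Sham, 4 NX and 4 AVF+NX libraries). Adamtsl2, Mgp, Emp1 and Vsig4 are higher and Eci1, Acadm, Etfb and Efnb3 lower in every AVF+NX library than in any NX library, and Etfb and Emp1 part NX 2 and NX 3 from NX 1 and NX 4. Vsig4 passed the count filter only through the AVF+NX libraries.

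Other mitochondrial genes encoded in the nucleus were mostly below 0, with 1 call in 3 lists. Mief2, an outer membrane protein that recruits the fission GTPase, fell by 0.86 (SE 0.16, adjusted p = 0.0443). It was at 17.4, 15.3, 17.3 and 15.4 CPM in AVF+NX against 35.8, 22.7, 22.7 and 38.7 CPM in NX hearts, with NX 1 and NX 4 near the 41.1 to 43.4 CPM of Sham. Mief2 was the only call among 27 genes of mitochondrial dynamics, import and quality control, of which 19 were below 0 (median -0.13, 4 lower and 1 higher without overlap). Over all genes tested 5.10% were lower and 4.96% higher without overlap. At an unadjusted p below 0.05, 1537 of all 12794 genes were lower and 1215 higher. Among 26 genes of the citric acid cycle and ketone use none was called, 18 were below 0 and 9 were lower without overlap (median -0.12, with 1 higher and 6 lower at an unadjusted p below 0.05). Sdha and Fh of that cycle were at 909 ± 59.8 and 213 ± 14.9 CPM against 1141 ± 76.5 and 281 ± 50.4 CPM (SD, n = 4 each, adjusted p = 0.0756 and 0.0971). Of 34 nuclear genes of oxidative phosphorylation none was called, 23 were below 0 and 5 were lower without overlap (median -0.11, with 1 higher and 11 lower at that unadjusted p). Atp5f1a and Atp5f1b, the alpha subunit and the catalytic beta subunit of ATP synthase, had log2 fold changes of -0.33 and -0.29 (adjusted p = 0.0638 and 0.0756).

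Transcripts of the mitochondrial chromosome were mostly above 0, also without a call. Of its 30 genes tested 23 were above 0, 6 were higher and 0 lower without overlap, and the median log2 fold change was 0.36. Of the 30, 17 are short genes of 64 to 75 bases, which gave 5 of the 6 without overlap and had a median of 0.76. The 13 longer genes, which encode proteins, had a median of 0.12 with 9 above 0 and 4 below, namely Mt-co3, Mt-nd3, Mt-nd4 and Mt-nd6 at -0.30, -0.15, -1.52 and -0.38 (adjusted p = 0.642, 0.805, 0.200 and 0.189). Over all genes tested 4.96% were higher without overlap. Mt-nd4 was at 341 and 478 CPM in NX 1 and NX 4 and at 55.2 and 97.8 CPM in NX 2 and NX 3. Mt-co1, a core subunit of cytochrome oxidase, was at 96450, 106400, 100700 and 115100 CPM in AVF+NX and at 79630, 84520, 82090 and 76090 CPM in NX hearts. These do not overlap (log2 fold change 0.38, SE 0.08, adjusted p = 0.0618), and Sham hearts were at 73160 to 79390 CPM. Without the small RNA and mitochondrial genes in the scaling, 47 genes were called in place of 43, and all 43 were among them.

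Genes of the contractile machinery had a median slightly below 0, and muscle genes outside that list were called. Myo18b, an unconventional myosin of the sarcomere, fell from 291 ± 26.0 to 209 ± 9.11 CPM (SD, n = 4 each, log2 fold change -0.48, adjusted p = 0.0378). Srpk3, a kinase of splicing factors found in striated muscle, was at 8.67, 8.21, 10.1 and 10.8 CPM in AVF+NX and at 17.9, 14.3, 13.2 and 20.1 CPM in NX hearts. It fell by 0.79 (SE 0.14, adjusted p = 0.0378), and Sham hearts at 14.5 to 16.9 CPM lay within the NX range. Lsmem2, a single-pass membrane protein, had the steepest fall, by 1.10 (SE 0.20, adjusted p = 0.0378), from 7.93 ± 2.06 to 3.62 ± 0.56 CPM (SD, n = 4 each).

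Among 19 contractile proteins none was called, 14 were below 0 and 7 were lower without overlap (median -0.20, with 1 higher and 7 lower at an unadjusted p below 0.05). Of all 12794 genes, 5.10% were lower without overlap, and 1215 were higher and 1537 lower at that unadjusted p. Tnnc1, the calcium sensor of the thin filament, was at 1405 to 1471 CPM in AVF+NX and at 1667 to 2023 CPM in NX hearts (log2 fold change -0.36, adjusted p = 0.0625). Mybpc3, the myosin-binding protein, had a value of -0.47 (adjusted p = 0.0885). Myh6 and Myh7, the fast and slow myosin heavy chains, were at -0.30 (adjusted p = 0.188) and -0.27 (adjusted p = 0.571), and both overlapped between the groups. Of 24 ion channel and calcium genes none was called and 3 were lower without overlap, with 1 higher and 5 lower at that unadjusted p. Among these Kcnj11, the pore of the ATP-sensitive potassium channel, was at 87.1 to 103 CPM in AVF+NX and at 117 to 182 CPM in NX hearts (log2 fold change -0.63, adjusted p = 0.0514).

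Efnb3, a membrane-bound ephrin that signals to Eph receptors on neighbouring cells, fell 1.88-fold. It stood at 70.9, 79.2, 71.2 and 87.9 CPM in AVF+NX, at 154, 141, 103 and 183 CPM in NX and at 185 to 199 CPM in Sham hearts. The order of the groups was Sham, NX, AVF+NX with no overlap between any of them, and the log2 fold change from NX to AVF+NX was -0.91 (SE 0.14, adjusted p = 0.0347). Against NX 2 and NX 3 alone it was -0.68.

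Several of the genes that rose encode proteins of the matrix or enzymes that modify it. Adamtsl2, a secreted protein that binds fibrillin microfibrils, had the smallest adjusted p of all genes. In AVF+NX libraries 1 to 4 Adamtsl2 (chromosome 3, 5624506 to 5654910) was at 19.5, 21.1, 13.2 and 15.8 CPM, and in NX libraries 1 to 4 at 6.87, 5.14, 7.47 and 7.70 CPM. The lowest heart with a fistula was well above the highest without, and Sham hearts were lower still at 3.42 to 4.48 CPM. The log2 fold change was 1.37 (SE 0.17, adjusted p = 0.0253). Adamtsl2 kept its call in 7 of the 11 fits that each left out 1 heart library, more than any other of the 43.

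Sparc, a collagen-binding protein of the matrix, was at 1570, 1664, 1515 and 1461 CPM in AVF+NX and at 1151, 993, 1126 and 1225 CPM in NX hearts. The rise by 0.47 on the log2 scale was small and even across libraries (SE 0.08, adjusted p = 0.0378), and NX hearts overlapped the 1134 to 1180 CPM of Sham. Mgp, the matrix Gla protein that restrains calcification of vessels and cartilage, was at 410.1, 349.8, 367 and 475 CPM against 254, 267, 278 and 247 CPM. It rose 1.53-fold (log2 0.61, SE 0.10, adjusted p = 0.0347), and no NX heart reached the lowest AVF+NX heart. P4ha1, a catalytic subunit of the prolyl hydroxylase that stabilises the collagen helix, was at 80.9, 81.8, 80.2 and 57.0 CPM against 37.8, 45.6, 54.8 and 33.6 CPM (log2 0.80, SE 0.15, adjusted p = 0.0443). AVF+NX 4 was low for P4ha1 and close to NX 3.

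The secreted proteins Ecm1 and Fstl1 and the fibroblast protein Islr, a marker of mesenchymal stroma, rose as well. Islr went from 19.9 ± 5.49 to 42.0 ± 7.59 CPM (SD, n = 4 each), 2.10-fold (adjusted p = 0.0347), and Fstl1 and Ecm1 rose 1.67-fold and 1.51-fold (adjusted p = 0.0471 and 0.0456). Uap1, which makes the activated N-acetylglucosamine used for glycoproteins and hyaluronan, varied little within a group, at 41.9, 47.1, 42.6 and 39.1 CPM against 24.9, 26.8, 26.5 and 26.4 CPM. Its log2 fold change was 0.71 (SE 0.10, adjusted p = 0.0347), and Sham hearts were at 24.8 to 35.2 CPM. Angptl1, a secreted angiopoietin-like protein, rose 1.64-fold (adjusted p = 0.0411), but it overlaps Ralgps2 on the opposite strand, and the strand setting of the counting is not given in the sources used here.

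Fibrillar collagen genes themselves were not called. Col1a1 was at 678, 616, 449.5 and 429 CPM in AVF+NX and at 284, 426, 492 and 551 CPM in NX hearts, and Col3a1 at 1729, 1255, 1013 and 921 CPM against 540.3, 739.8, 923 and 1054 CPM. AVF+NX 1 and AVF+NX 2 were high for both, AVF+NX 3 and AVF+NX 4 lay within the NX range or beside it, and NX 1 was the lowest of the NX hearts. The log2 fold changes were 0.31 (SE 0.20, adjusted p = 0.391) and 0.59 (SE 0.24, adjusted p = 0.188). Of 26 genes of the fibrillar matrix 1 was called, Sparc, with 21 above 0, 3 higher without overlap and a median of 0.38. Over all genes tested 4.96% were higher without overlap. Thbs1, a matricellular protein that releases TGF-beta from its latent form, was at 66.6, 28.2, 27.1 and 25.4 CPM against 8.65, 18.1, 12.9 and 8.85 CPM (log2 1.57, SE 0.36, adjusted p = 0.0756), and without AVF+NX 1 the value was 1.11. Postn, made by activated fibroblasts, ranged from 7.93 to 30.2 CPM in AVF+NX and from 4.27 to 34.0 CPM in NX hearts (log2 0.18, SE 0.59), and its sign turned in 5 of the alternative fits.

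Of 23 genes of elastic fibres and microfibrils 1 was called, Adamtsl2, and 18 were above 0, with 2 higher and 1 lower without overlap (median 0.22). Over all genes tested 4.96% were higher and 5.10% lower without overlap. Mfap5, a microfibril protein that also marks fibroblasts, was at 27.5 to 40.2 CPM against 10.8 to 26.2 CPM (log2 1.05, adjusted p = 0.0618). Adamtsl5, a relative of Adamtsl2, was the one lower without overlap (log2 -0.47, adjusted p = 0.0838), and Emilin1, a glycoprotein of elastic fibres, was at -0.66 (adjusted p = 0.182). Among 25 enzymes and inhibitors of matrix crosslinking and remodelling, F13a1 and P4ha1 were called higher and 0 lower, with 5 higher without overlap and a median of 0.23. Timp3, an inhibitor of matrix proteases, was at 0.42 (adjusted p = 0.0756) and Timp1 at 0.26 (adjusted p = 0.333). Of 18 fibroblast markers Islr was called and 16 were above 0 (median 0.36), and the summed level of the 18 ran from 3670 to 4290 CPM in AVF+NX, from 3450 to 3790 CPM in NX and from 3040 to 3250 CPM in Sham hearts. The part of this sum in the rise of matrix genes was not tested.

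Among the genes that rose were Lyve1 and F13a1, 2 of 22 macrophage markers tested, and RT1-Da, 1 of 12 genes of antigen presentation. Over all genes tested 0.172% were called higher. Vsig4, a complement receptor of tissue macrophages, had the largest fold change, from very few reads. No NX or Sham library reached the 0.841 CPM of the count filter for Vsig4, so it was tested only through the group where it was high and had to differ, and nothing is drawn from its call or its rank. It was the only one of the 43 called genes tested through the AVF+NX libraries alone. It was counted 51, 106, 40 and 13 times in AVF+NX libraries 1 to 4 and 2, 3, 4 and 3 times in NX libraries 1 to 4, or 1.80, 2.23, 0.879 and 1.16 CPM against 0.208, 0.130, 0.220 and 0.289 CPM. The ratio of the summed rates was 8.03, and the fitted log2 fold change was 2.92 (SE 0.45, adjusted p = 0.0347). The 95% exact Poisson interval of the ratio, 4.50 to 15.8, covers counting error only and leaves out the spread between hearts. Because of the filter nothing is drawn from the interval either.

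Lyve1, a hyaluronan receptor of lymphatic endothelium and of resident macrophages, was at 54.2, 37.4, 35.01 and 42.1 CPM in AVF+NX and at 21.0, 27.3, 24.5 and 21.4 CPM in NX hearts. It rose 1.78-fold (log2 0.83, SE 0.14, adjusted p = 0.0347), and the NX range held the 3 Sham hearts except Sham 1 at 20.7 CPM. F13a1, the transglutaminase subunit of factor XIII that macrophages also make, was at 59.4, 42.5, 52.0 and 48.5 CPM against 29.6, 32.6, 27.4 and 22.4 CPM, a rise of 1.80-fold (adjusted p = 0.0347). RT1-Da, the alpha chain of an MHC class II molecule, was at 73.2, 55.7, 69.98 and 66.8 CPM against 29.6, 42.4, 38.4 and 45.4 CPM, and rose 1.70-fold (adjusted p = 0.0347). For these 3 genes every heart with a fistula lay above every NX and every Sham heart. Cd48, a surface protein of leukocytes, rose 1.67-fold (adjusted p = 0.0347), with NX 2 and NX 3 at 64.5 and 68.8 CPM and NX 1 and NX 4 at 44.5 and 48.4 CPM.

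Of 22 macrophage markers tested, F13a1 and Lyve1 were called, 19 were above 0 and 4 were higher without overlap (median 0.34). The remaining 3 were below 0, down to -0.65. The summed level of the 22 was 596, 484, 473 and 479 CPM in AVF+NX and 345, 321, 349 and 491 CPM in NX hearts, so NX 4 lay inside the AVF+NX range. C1qa and Adgre1 had 1261 and 1612 counts over the 4 AVF+NX libraries. They had 803 and 844 over the 4 NX libraries, which were on the whole sequenced less deeply. Of the other 6 lymphatic endothelial markers besides Lyve1 none was called, and the median of all 7 was -0.004. Lyz2, the lysozyme of macrophages, stood at 125 to 163 CPM against 59.3 to 123 CPM (log2 0.65, adjusted p = 0.0885). Markers of T, NK and B cells summed to 35.6 to 43.7 CPM against 26.2 to 42.3 CPM, with 8 of 19 tested and none called. Among 12 antigen presentation genes RT1-Da was called, 8 were above 0 and 4 below, and 2 were higher without overlap (median 0.19). Over all genes tested 4.96% were higher without overlap. B2m, the light chain of MHC class I, was at 0.56 (adjusted p = 0.0756), while Tapbp, which loads peptides, was at -0.50 (adjusted p = 0.114).

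Sp100, a component of nuclear bodies that interferon induces, rose from 8.24 ± 1.32 to 15.2 ± 1.48 CPM (SD, n = 4 each, log2 0.86, SE 0.15, adjusted p = 0.0378). It was the only call among 42 interferon-stimulated genes, of which 37 were above 0 and 3 were higher without overlap (median 0.51). Over all genes tested 4.96% were higher without overlap. Single libraries differed widely in the interferon list. Ifit1, an interferon-induced RNA-binding protein, was at 38.0 and 9.86 CPM in AVF+NX 1 and AVF+NX 2, at 0.132 and 0.0891 CPM in AVF+NX 3 and AVF+NX 4, and at 0.104, 0.130, 4.23 and 8.66 CPM in NX libraries 1 to 4. Herc6 was at 21.3 CPM in AVF+NX 1 and between 9.001 and 10.2 CPM in the other 3.

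**Figure D3:**
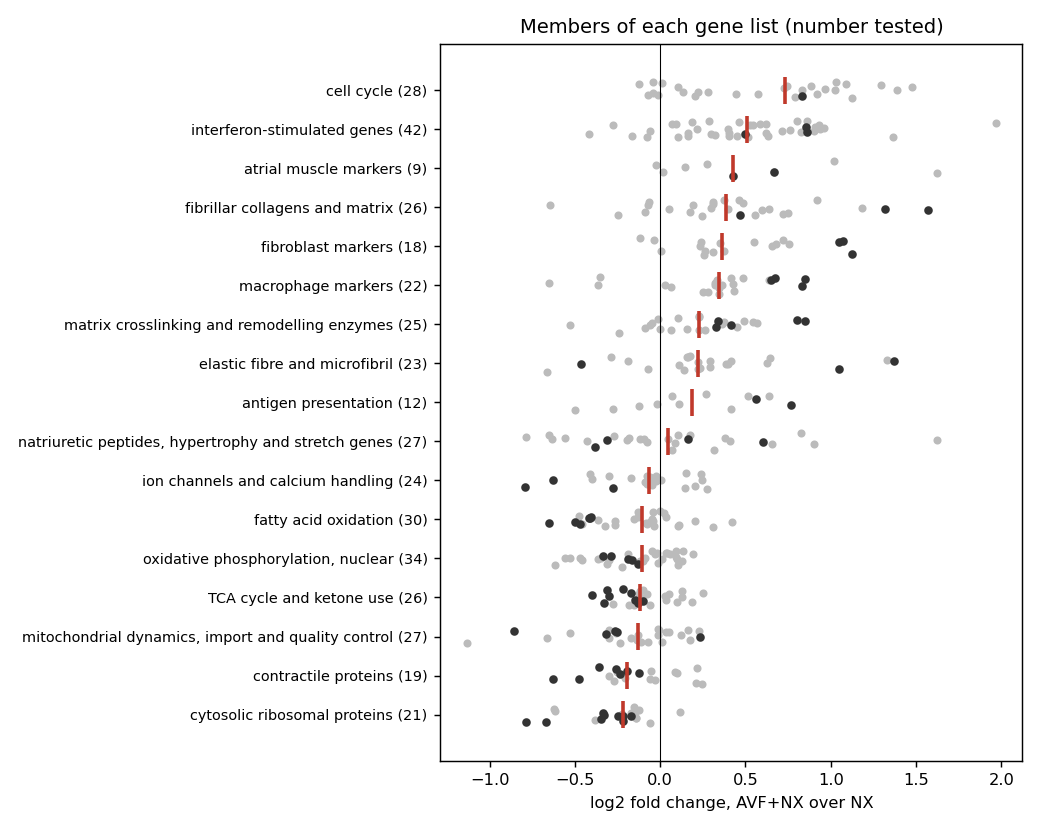
Log2 fold change, AVF+NX over NX, of every tested member of 17 gene lists, with the number tested in brackets, members without overlap between the groups in black, the others in grey and the median of the list as a red line. Medians run from -0.22 for cytosolic ribosomal proteins to 0.73 for cell cycle genes, and most members of every list overlap between the groups.

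The remaining genes that rose belong to several families. Emp1 and Pmp22, membrane proteins of the same small family, rose 2.14-fold and 1.37-fold (adjusted p = 0.0378 each). Emp1 was at 225, 192, 183 and 151 CPM in AVF+NX and at 70.5, 111, 110.3 and 58.5 CPM in NX hearts, with NX 1 and NX 4 near the 70.6 to 80.7 CPM of Sham. S100a10, the partner of annexin A2, rose 1.60-fold (adjusted p = 0.0347). Mest, an imprinted gene expressed from the paternal allele, rose 2.75-fold from 1.195 ± 0.38 to 3.35 ± 0.66 CPM (SD, n = 4 each, adjusted p = 0.0378). Cadm3, a cell adhesion molecule, Plekhg1, a nucleotide exchange factor, and Rbbp8, which trims DNA ends for repair, rose 1.59-fold, 1.49-fold and 1.59-fold (adjusted p = 0.0378, 0.0436 and 0.0444).

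The remaining genes that fell act in many parts of the cell. Rpl22l1, a paralogue of a ribosomal protein, and Ddit4l2 fell most, by 1.00 (SE 0.18, adjusted p = 0.0378) and 1.03 (SE 0.19, adjusted p = 0.0443) on the log2 scale. Rpl22l1 was at 5.64, 6.32, 6.37 and 4.99 CPM against 15.3, 10.3, 8.35 and 14.04 CPM, with NX 1 and NX 4 within the 13.0 to 17.3 CPM of Sham. Ehbp1l1, an effector of Rab GTPases, fell by 0.63 (adjusted p = 0.0443), and Gprasp1, which sorts receptors to lysosomes, by 0.62 (adjusted p = 0.0378). The deubiquitinase Usp20 fell by 0.65 and the DNA-binding subunit Rpa1 of replication protein A by 0.59 (adjusted p = 0.0347 each). Sart1 of the spliceosome, Arf5, a GTPase of vesicle traffic, Ing5, a reader of histone marks, and Perp, a desmosomal protein, fell by 0.49, 0.48, 0.51 and 0.50 (adjusted p = 0.0347, 0.0378, 0.0443 and 0.0471). Cytosolic ribosomal proteins had no call among 21 tested, but 20 were below 0, 9 were lower without overlap and 12 were lower at an unadjusted p below 0.05 (median -0.22). Of all 12794 genes, 5.10% were lower without overlap and 1537 were lower at that unadjusted p. Per library, the median of the 21 against the mean of the NX hearts was -0.14 in AVF+NX 4 and -0.16 in NX 3, so the groups overlapped. A wider set was all genes with a symbol of Rpl or Rps and a digit, which takes in Rpl22l1. Its share of the counts was 0.923% ± 0.026 in AVF+NX and 1.08% ± 0.032 in NX hearts (SD, n = 4 each, exact permutation p = 0.0286, adjusted 0.0572).

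Natriuretic peptides, which the heart releases when its wall is stretched, were not called and varied widely between hearts. Nppa was at 901, 329, 187 and 201 CPM in AVF+NX libraries 1 to 4 and at 59.0, 78.2, 185 and 204 CPM in NX libraries 1 to 4. The highest 2 values were both from hearts with a fistula, while AVF+NX 3 and AVF+NX 4 were level with NX 3 and NX 4. The log2 fold change was 1.62 (SE 0.59, adjusted p = 0.166), and 0.86 without AVF+NX 1. Nppb was at 248, 349, 317 and 161 CPM against 81.4, 153, 133 and 209.7 CPM (log2 0.90, SE 0.32, adjusted p = 0.156), so only AVF+NX 4 fell within the NX range. The authors' deposited table gives Nppb an adjusted p of 0.0417 and Nppa one of 0.181.

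Of 27 natriuretic peptide, hypertrophy and stretch genes none was called, 14 were above 0 and 13 below, and 2 were higher and 2 lower without overlap (median 0.05, with 5 higher and 5 lower at an unadjusted p below 0.05). Over all 12794 genes 4.96% were higher and 5.10% lower without overlap, and 1215 were higher and 1537 lower at that unadjusted p. Csrp3, a stretch-sensing protein of the Z-disc, was at 284 to 352 CPM in AVF+NX and at 390.1 to 427 CPM in NX hearts (log2 -0.38, adjusted p = 0.0598). Osmr, the oncostatin M receptor, was at 24.0 to 30.9 CPM against 13.7 to 22.5 CPM (0.61, adjusted p = 0.0791). Of 9 tested markers of atrial muscle, a list that includes Nppa, none was called, 8 were above 0 and 2 were higher without overlap (median 0.43, with 3 higher and 0 lower at an unadjusted p below 0.05). Their sum was 3273, 2710, 2418 and 2202 CPM in AVF+NX and 1468, 1833, 2031 and 1921 CPM in NX hearts, with Sham at 1580 to 1630 CPM. Pam, which processes peptide hormones and makes up most of that sum, was at 1898 to 2259 CPM against 1309 to 1747 CPM (log2 0.43, adjusted p = 0.0656). Sln, a marker of atrial muscle, had 59 counts over the 4 AVF+NX and 6 over the 4 NX libraries and was too low to be tested. These are raw counts, and the AVF+NX libraries were on the whole sequenced deeper. The part of atrial tissue in the values of Nppa was not tested.

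**Figure D4:**
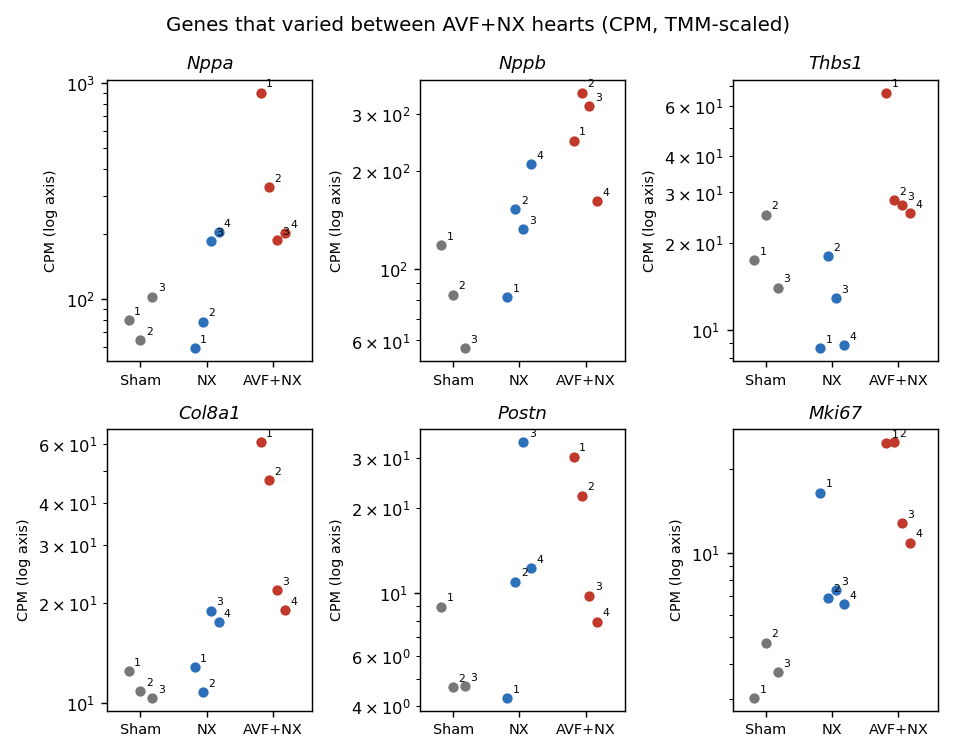
CPM on a log axis of 6 genes that were not called, in each heart library, by group and with library numbers beside the points. Nppa, Thbs1 and Col8a1 are highest in AVF+NX 1, Postn is highest in NX 3, and the groups overlap for Nppa, Nppb, Postn and Mki67.

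Cell cycle genes had the highest median of the lists described, 0.73, with 23 of 28 above 0, none called, 1 higher without overlap and 11 higher at an unadjusted p below 0.05. Of all 12794 genes, 4.96% were higher without overlap and 1215 were higher at that unadjusted p. Per library, the median of the 28 against the mean of the NX hearts was 0.90, 0.82, 0.16 and -0.069 in AVF+NX 1 to 4. It was 0.53, -0.23, -0.16 and -0.175 in NX 1 to 4, so AVF+NX 3 and AVF+NX 4 lay below NX 1. Nusap1, a spindle protein, was at 7.05, 7.60, 6.19 and 5.97 CPM in AVF+NX and at 3.23, 3.67, 4.89 and 3.17 CPM in NX hearts (log2 0.83, SE 0.17, adjusted p = 0.0576). Mki67, the usual marker of dividing cells, was at 24.7, 24.96, 12.8 and 10.9 CPM against 16.5, 6.91, 7.36 and 6.54 CPM. NX 1 lay above AVF+NX 3 and AVF+NX 4 for Mki67, and the log2 fold change was 1.02 (SE 0.34, adjusted p = 0.137). Col8a1, a short-chain collagen of vessels, was at 60.9, 46.8, 21.9 and 19.1 CPM in AVF+NX libraries 1 to 4 and at 10.8 to 19 CPM in NX hearts, so its groups did not overlap (log2 1.32, adjusted p = 0.0970). AVF+NX 1 and AVF+NX 2 were thus above AVF+NX 3 and AVF+NX 4 for Nppa, Mki67, Col8a1 and Ifit1. This did not hold for Nppb, at 317 CPM in AVF+NX 3 and 248 CPM in AVF+NX 1.

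For all 22 genes that rose, and for all 21 that fell, the AVF+NX values also lay outside the range of the 3 Sham hearts. The NX values overlapped Sham in 18 of the 22 and in 14 of the 21. Vsig4 is among the 22. The shares over all genes tested were not counted, so nothing is drawn from these numbers. In the kidneys of the same 2 treatment groups, fitted separately, 4 of 21 tested genes that rose in heart were also called higher, RT1-Da, Cd48, Sp100 and Sparc, with log2 fold changes of 1.203, 0.51, 0.95 and 0.69, and none was called lower. In that kidney fit 4.87% of 14322 genes were called higher and 1.2% lower. Of 20 genes that fell in heart and were tested in kidney none was called there, and the difference between the organs was not tested.

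The 43 calls depended on single libraries. Leaving out NX 1, AVF+NX 1, AVF+NX 2 or Sham 1 left 0 calls in edgeR (1940, 2118, 2181 and 2642 genes at an unadjusted p below 0.05), and leaving out AVF+NX 3, NX 4, Sham 2 or Sham 3 left 2, 3, 2 and 2. Of the 3 without NX 4 only 1 was among the 43. Leaving out AVF+NX 4 gave 42, of which 28 were among the 43, and leaving out NX 2 or NX 3 gave 695 and 525. NX 2 and NX 3 both lay below NX 1 and NX 4 for 14 of the 21 genes that fell and above them for 12 of the 22 that rose, where 31.9% and 29.3% of all genes did so. Against NX 2 and NX 3 only, 12 genes were called, 6 of them among the 43, and against NX 1 and NX 4 only, 3684. With only the 8 AVF+NX and NX libraries, with log2 total count as a term or with limma voom there were 0 calls, and DESeq2 gave 823. No called gene changed its sign in any of the fits. The groups did not overlap for any of the 43, so a change of sign was hardly possible and this is no measure of stability.

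**Figure D5:**
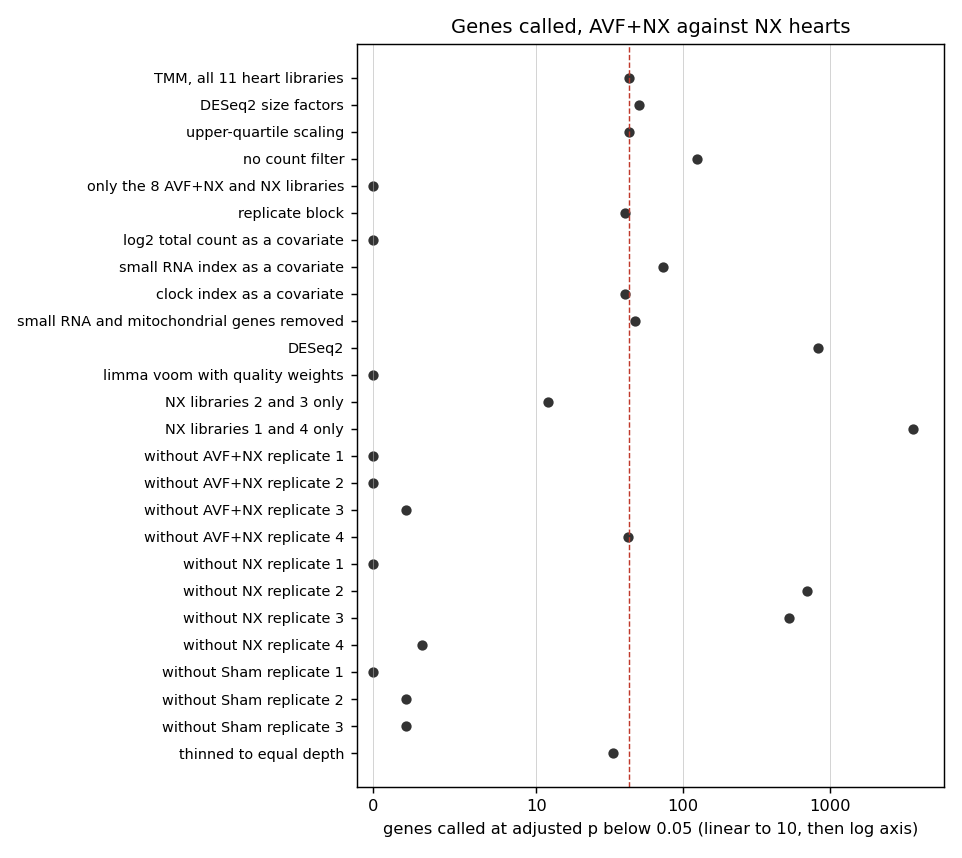
Number of genes called at an adjusted p below 0.05 for AVF+NX against NX hearts under each way of processing the counts, on an axis that is linear up to 10 and logarithmic beyond, with the 43 calls as a dashed line. Counts run from 0 to 3684, and the highest comes from NX 1 and NX 4 as the only NX libraries.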

How the data were processed

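RNA was selected for poly(A) and made into strand-specific paired-end libraries, per the labels' protocols. The authors deposited whole-number read counts per gene for each library, in the layout of featureCounts per the file headers. The submitters' processing notes list STAR 2.5.2b, Trimmomatic 0.36, Subread 1.5.2 and featureCounts without saying what each did. Build, annotation and the strand setting for counting are not given in the sources. The authors also deposited tables with log2 fold changes, p-values and adjusted p-values, and with a normalised signal per library that was not used here.

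The 11 heart libraries (4 AVF+NX, 4 NX, 3 Sham) were fitted together in edgeR 4.0.16 (R 4.3.3), with filterByExpr, TMM scaling and the robust quasi-likelihood F test, and 12794 of 32552 genes were tested. Adjustment of p-values followed Benjamini and Hochberg, over all 12794 genes, and genes with an adjusted p below 0.05 are named as called. Standard errors were derived from F as the log2 fold change over its root. The common biological coefficient of variation was 0.156. Kidney values come from a fit of the kidney libraries alone. Symbols were taken from the authors' tables. Counts were also simulated for 12596 genes, each with the common coefficient of 0.156 and without the split of the NX libraries. In them 55.0% of falls and 57.5% of rises of 1.5-fold and 100% of 2-fold changes were recovered, with 8 false calls. Many changes of 1.5-fold were missed in the simulation. Real genes differ in spread, so these shares do not hold for the data, where Nppa at 3.08-fold was not called.

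Replicates of a group had chi-square values of 14.6 to 58.5 per degree of freedom, so none was a repeated library. Same-numbered AVF+NX and NX libraries had correlations of their deviations of 0.04, -0.12, 0.12 and 0.03, and the numbers were not used as pairs. Named were all called genes with a symbol, the 5 members of each described list that had the lowest p, 8 genes always given (Nppa, Nppb, Myh6, Myh7, Col1a1, Col3a1, Postn, Timp1) and genes with the largest spread within a group. The text prints part of these and, among the other observations, some named after their values were seen. The members, the lists and the alternatives were chosen with earlier results of these data known. Lists are described by counts and medians, with no test. Alternatives were 2 other scalings, no filter, the 8 libraries alone, the replicate number, log2 total count, a small RNA index or a clock index as a term, small RNA and mitochondrial genes removed, DESeq2 1.42.0, limma 3.58.1 with voom and quality weights, NX 2 and 3 or NX 1 and 4 alone, each library left out, and counts thinned to equal depth, the last added after the data were seen. Promoter windows came from RefSeq (GRCr8), and 38 of the 43 called genes had one.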

Additional observations from a re-analysis of the deposited data

Results flagged for a closer look

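In 5 of 156 groups of 4 values examined, 1 library lay far from the other 3 for a gene or library measure named here, where chance gives about 1 in 20. P4ha1 was at 56.95 CPM in AVF+NX 4 and at 80.2 to 81.8 CPM in the other AVF+NX hearts, and Islr was at 28.1 CPM in NX 3 and at 16.5 to 18.1 CPM in the other NX hearts. Both are called genes, and in both the distant library lies toward the other group. Thbs1 was at 66.6 CPM in AVF+NX 1 and at 25.4 to 28.2 CPM in the other 3, and Herc6, an interferon-induced gene, at 21.3 CPM in AVF+NX 1 and at 9.001 to 10.2 CPM in the other 3. Mki67 was at 16.5 CPM in NX 1 and at 6.54 to 7.36 CPM in the other NX hearts.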

How the results depend on the processing

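Beside the 43 calls (22 higher, 21 lower), the other scalings gave 50 and 43, and removal of small RNA and mitochondrial genes 47. The clock index as a term gave 40, of which 33 were among the 43. With the replicate number as a term (replicate block) 40 genes were called, 19 higher and 21 lower, of which 23 were among the 43; only 1 of the 8 libraries, NX 3, correlated best with the other group's library of its own number, so the numbers only name samples. Without a count filter 124 genes were called (61 and 63), when the small RNA index was a term 73 (36 and 37), with DESeq2 823 (314 and 509), against NX 2 and 3 only 12 (9 and 3) and against NX 1 and 4 only 3684 (1639 and 2045). The calls numbered 0 (0 higher, 0 lower) with only the 8 libraries, with log2 total count as a term and with limma voom, with 2368, 1175 and 2008 genes at an unadjusted p below 0.05 and smallest adjusted p of 0.0829, 0.0595 and 0.0582. Leaving out 1 library gave 0 to 695 calls, 0 to 206 higher and 0 to 489 lower. These were 0, 0, 2 and 42 without AVF+NX 1 to 4, 0, 695, 525 and 3 without NX 1 to 4, and 0, 2 and 2 without Sham 1 to 3. Thinned to equal depth, 33 genes were called, 24 of them among the 43. The share of calls that were higher went from 51.2% to 38.2% with DESeq2. None of the 43 reversed under any of these alternatives, which their groups without overlap hardly allowed, and none kept its call through every library left out. Postn reversed with log2 total count (-0.47), with the clock index (-0.045) and against NX 2 and 3 only (-0.34), and ranged from -0.22 to 0.93 as libraries were left out. The cause of these differences was not tested. Depth limits genes such as Vsig4, with 2 to 4 counts per NX library.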

Other observations

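Among 11 imprinted growth genes, 8 were above 0, Mest was called, and 4 were higher and 1 lower without overlap, with a median log2 fold change of 0.37. Besides Mest these were Zim1, at 5.58 to 7.49 CPM in AVF+NX and 3.64 to 5.10 CPM in NX hearts (log2 0.52, adjusted p = 0.116), Sgce (0.43, adjusted p = 0.0971) and Ndn (0.47, adjusted p = 0.231), and Cdkn1c, which restrains growth, at -0.45 (adjusted p = 0.245). Over all genes tested 4.96% were higher and 5.10% lower without overlap. Igf1, a growth factor, was at 30.3 to 39.7 CPM in AVF+NX and 18.5 to 29.1 CPM in NX hearts (0.59, adjusted p = 0.0756). The endothelial genes Emcn and Cdh5 were at 51.4 to 56.7 and 316 to 323 CPM against 34.0 to 44.5 and 214 to 282 CPM (0.53 and 0.38, adjusted p = 0.0514 and 0.0885), while the 13 endothelial markers tested had a median of 0.06.

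The clock genes Dbp and Arntl, which were among the genes with the largest spread within a group, varied widely between hearts of a group. Dbp, an output gene of the clock, was at 8.004, 9.92, 61.8 and 73.6 CPM in AVF+NX libraries 1 to 4 and at 12.8, 48.3, 32.8 and 105 CPM in NX libraries 1 to 4, and Arntl, a core activator, at 46.6, 49.5, 14.8 and 7.13 CPM against 45.6, 18.7, 34.1 and 10 CPM. Dbp was lower and Arntl higher in AVF+NX 1 and AVF+NX 2 than in AVF+NX 3 and AVF+NX 4, the hearts that Nppa also parted. A link between these was not tested. Sham hearts had means of 143.8 CPM for Dbp and 3.45 CPM for Arntl. Of 19 clock genes none was called, and none was without overlap between AVF+NX and NX.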
